A study of Homo sapiens with 6 samples.

Results

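Antisense RNAs are transcribed from the strand opposite to a named gene, and human gene names mark them by the partner's symbol followed by -AS and a number. The 320 antisense RNAs described here were selected on their mean over all samples: they are the rows whose name ends in -AS1, -AS2 or -AS3 and whose mean was at least 0.5 FPKM (fragments mapped per kilobase of transcript, scaled to the depth of the library). They are 320 of the 1034 rows so named and of 23002 rows in all, and 303 of them are -AS1, 15 are -AS2 and 2 are -AS3. The sense partner of each is the row carrying the name before -AS. A partner row was found for 313 members, and the partner of 271 of these also reached a mean of 0.5 FPKM, which gives 271 pairs, with 269 different partners, in which both genes were tested. The selection used no difference between the groups.

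RNA was sequenced in U251 cells, an established human glioblastoma line, with 3 samples of a control line and 3 samples of a knockdown line. The control line, sh-NC, carries a non-targeting short hairpin RNA, and the knockdown line, sh-TRAF2, carries a hairpin against TRAF2, the adaptor protein that links the receptors for tumor necrosis factor to downstream signaling. Both are stable lines made with lentiviral vectors and held under puromycin selection, so the controls share the vector and the drug, and which of the study's hairpins against TRAF2 was used for these libraries is not given in the sources used here. The study says in general that its experiments were repeated independently, at least 3 times. It does not say whether the 3 RNA samples of a group came from separate cultures. The p-values therefore measure the spread between these samples, which may be technical.

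Many antisense RNAs start close to the start of their partner and run away from it, others start downstream and run back through the partner, and others lie within one of its introns. They are known for low levels, retention in the nucleus and rapid decay by the nuclear RNA exosome, and some regulate the gene they oppose while most have no assigned function. Where the exons of both RNAs overlap, a read can be assigned to the right gene only if its strand is known. Whether the counting behind these values used strand is not given in the sources used here. It is therefore not known whether reads from a gene and from its antisense partner were told apart where they overlap. Each antisense value below carries that uncertainty.

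The RefSeq annotation (GRCh38.p14) shows how the pairs lie. Of the 313 pairs, 32 stood head to head, with starts within 1000 bases of each other and bodies apart, and 75 stood head to head with overlapping bodies. In 51 pairs the antisense gene lay inside its partner, in 9 the partner lay inside the antisense gene, in 55 the tails overlapped, in 10 the genes were on opposite strands and apart, and in 81 at least 1 of both genes was not matched. Of the head to head pairs, 12 had starts under 250 bases apart and an antisense RNA that passed the test given further on. The start regions of 4 of these are shown because one short stretch of DNA there lies between the starts of both RNAs, whose fold changes differed. Each runs 5′ to 3′ on the strand of the antisense RNA, from 250 bases before its start to 50 bases after it (RefSeq, GRCh38.p14). The capitals mark the stretch from the start of the partner to the start of the antisense RNA.
HERPUD2-AS1: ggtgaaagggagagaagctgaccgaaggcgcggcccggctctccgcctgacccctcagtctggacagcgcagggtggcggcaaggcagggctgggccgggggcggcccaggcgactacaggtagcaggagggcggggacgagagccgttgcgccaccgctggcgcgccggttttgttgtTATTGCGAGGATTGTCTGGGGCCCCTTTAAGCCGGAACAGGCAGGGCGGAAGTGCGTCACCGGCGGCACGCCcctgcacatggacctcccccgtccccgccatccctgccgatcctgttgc
NQO2-AS1: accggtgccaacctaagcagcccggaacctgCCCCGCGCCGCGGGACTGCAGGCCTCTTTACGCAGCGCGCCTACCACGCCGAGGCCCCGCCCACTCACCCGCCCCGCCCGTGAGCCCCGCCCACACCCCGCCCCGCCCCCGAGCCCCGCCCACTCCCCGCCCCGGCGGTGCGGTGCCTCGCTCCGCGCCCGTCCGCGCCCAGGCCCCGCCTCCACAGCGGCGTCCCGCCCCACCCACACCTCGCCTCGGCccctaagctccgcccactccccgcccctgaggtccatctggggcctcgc
KTN1-AS1: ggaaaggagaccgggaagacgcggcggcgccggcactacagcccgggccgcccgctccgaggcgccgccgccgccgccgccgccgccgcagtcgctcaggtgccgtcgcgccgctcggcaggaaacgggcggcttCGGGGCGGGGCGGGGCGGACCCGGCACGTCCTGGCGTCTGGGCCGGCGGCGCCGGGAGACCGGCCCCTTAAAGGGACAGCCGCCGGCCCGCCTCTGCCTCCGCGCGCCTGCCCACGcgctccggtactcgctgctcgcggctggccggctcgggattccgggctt
ENO1-AS1: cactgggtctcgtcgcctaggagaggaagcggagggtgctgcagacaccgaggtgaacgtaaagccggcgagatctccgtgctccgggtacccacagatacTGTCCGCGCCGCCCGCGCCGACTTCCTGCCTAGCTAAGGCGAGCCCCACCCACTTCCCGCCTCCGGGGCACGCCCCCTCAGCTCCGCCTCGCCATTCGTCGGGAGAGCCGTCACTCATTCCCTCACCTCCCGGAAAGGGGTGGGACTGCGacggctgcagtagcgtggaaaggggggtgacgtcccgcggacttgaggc
HERPUD2-AS1 is shown on the + strand of chr7:35694956-35695255, NQO2-AS1 on the - strand of chr6:2999626-2999925, KTN1-AS1 on the - strand of chr14:55580043-55580342 and ENO1-AS1 on the + strand of chr1:8878585-8878884. The starts are 71, 219, 115 and 149 bases apart, in that order. All 4 windows are rich in G and C, at 69.7%, 79.3%, 80.0% and 67.7%, and hold 28, 39, 54 and 31 CpG dinucleotides, against a median of 58.7% and 14 over all 35116 RefSeq promoters of the same length. None of the 4 holds the letters TATAAA or CCAAT on either strand, which 11.5% and 34.6% of all promoters hold. All 4 hold GGGCGG on at least 1 strand, with 3, 9, 4 and 1 matches, and 45.0% of all promoters hold it. Of the other 8 start regions, those of THAP9-AS1, CDK6-AS1 and AFF1-AS1 hold CCAAT, and those of UBQLN1-AS1 and CDK6-AS1 do not hold GGGCGG. The 140 promoters of head to head members have a median of 66.2% G and C and 26.5 CpG dinucleotides, and 65% of them hold GGGCGG, 24.3% CCAAT and 5.71% TATAAA. RefSeq lists 312 promoters for 260 of the members, with a median of 63.3% G and C, and the 68 promoters of members that rose in sh-TRAF2 have a median of 58.8%.

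TRAF2 itself measured 15.1, 18.4 and 15.3 FPKM in sh-NC and 3.26, 3.22 and 3.33 FPKM in sh-TRAF2. The knockdown samples all lay far below the controls, a log2 fold change of -2.27 (SE 0.079, adjusted p = 1.16e-06). Reads on genes, recovered from the FPKM values, ran from 33999558 to 36823562 per sample. Of the markers of glioma cells, VIM, SOX2, CD44 and EGFR were the most abundant, but EGFR fell from a mean of 31.8 FPKM to 14.3 FPKM, NES rose from 5.35 FPKM to 11.7 FPKM and GFAP, with overlapping groups, from 0.467 FPKM to 1.18 FPKM, all 3 past both thresholds used below. PDGFRA stayed under 1 FPKM, and S100B and OLIG2 were near 0. PTPRC, PECAM1, EPCAM and RBFOX3, which define leukocytes, endothelium, epithelium and neurons, had at most 2 reads in any sample. Other markers of those cells were not all near 0: CD68, a lysosomal protein abundant in macrophages, averaged 16.1 and 15.9 FPKM, the keratin KRT8, at 0.792 FPKM in sh-NC, rose by 0.54 on the log2 scale (adjusted p = 0.0134), and SNAP25 of neurons averaged 0.297 and 0.598 FPKM and was under the filter of the test. Their part in the results was not tested. Among the controls, sh-NC replicate 1 stood nearer to the knockdown samples than the other controls did for many antisense RNAs. Values without it are given beside most of the members called. It was singled out from these same values, so those without it are a description and no test.

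The antisense RNAs were scarce. Their median was 1.46 FPKM, against 13.3 FPKM for the tested partners, and 98 of the 320 lay under 1 FPKM and 17 at or above 10 FPKM. Of the 271 pairs, 24 had more antisense than partner, and the median level ratio of antisense to partner was 0.105. The most abundant was VIM-AS1, opposite the gene for vimentin, the main intermediate filament of these cells. It was followed by EPB41L4A-AS1 at 43.3 FPKM, FGD5-AS1 at 21.8 FPKM, THAP9-AS1 at 21.6 FPKM and DLGAP1-AS2 at 18.6 FPKM as means of the 6 samples, all 4 above their partners.

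**Figure D1:**
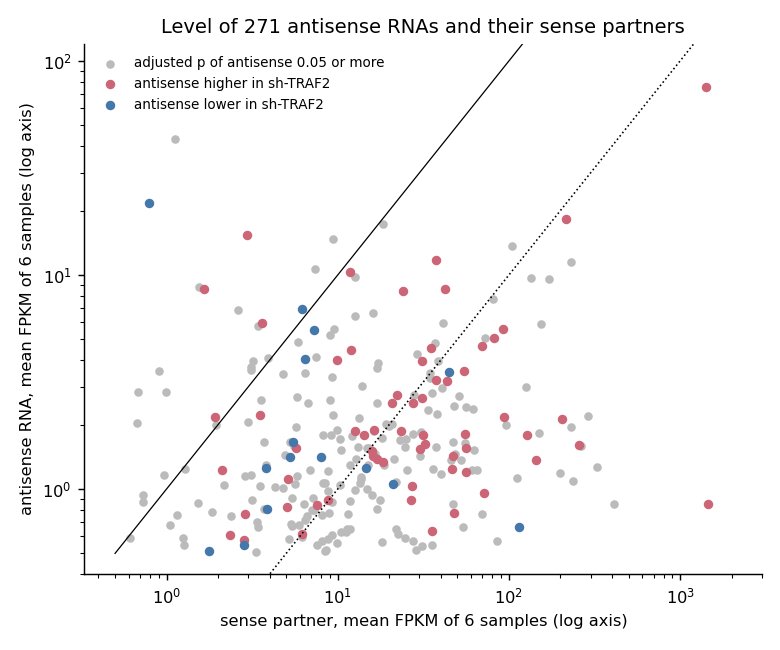
Mean FPKM of 271 antisense RNAs (vertical, log axis) against that of their sense partners (horizontal, log axis), 1 point per pair. The solid line marks equal levels and the dotted line an antisense level of 0.1 of the partner's. Red points rose and blue points fell in sh-TRAF2 at an adjusted p under 0.05. Only 24 points lie above the solid line, and 129 lie below the dotted one.

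The 3 members with the highest ratio to their partner were FGD5-AS1, DLGAP1-AS2 and IGFL2-AS1, whose partners FGD5, DLGAP1 and IGFL2 were near 0. FGD5-AS1 measured 22.9, 23.9 and 22.8 FPKM in sh-NC and 20.7, 21.0 and 19.4 FPKM in sh-TRAF2, a log2 fold change of -0.19 (SE 0.047, adjusted p = 0.0127). IGFL2-AS1 measured 5.77, 5.86 and 8.79 FPKM in sh-NC and 4.21, 5.92 and 4.39 FPKM in sh-TRAF2, and the groups overlapped (adjusted p = 0.0603). At the edge of the selection, FMNL1-AS1 and ZNF516-AS1 lay just inside with means of 0.508 and 0.510 FPKM, and UCKL1-AS1 and TONSL-AS1 just outside with 0.49997 and 0.498 FPKM. Counting noise was large for the lowest members: 29 of the 320 had fewer than 10 reads in at least 1 sample.

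As a group, the antisense RNAs stood higher in the knockdown line. Their median log2 fold change was 0.20, against 0.019 over the 11870 genes tested and 0.010 over the 269 partners, and 222 of 320 lay above 0 and 98 below. Of the 320, 68 rose and 21 fell at an adjusted p under 0.05 (limma on log2(FPKM + 0.1)). Over all genes tested 44.6% passed that test, 23.7% as higher and 20.9% as lower. Of the members 21.2% rose and 6.56% fell. Most of the genes tested were protein-coding and at 5 FPKM or more, and scarcer genes passed less often. Shares by level are therefore given below. The groups did not overlap for 95 members, 29.7%, against 55.5% of all genes. The number that rose was 37 when sh-TRAF2 replicate 2 was left out. Among the 293 members with a mean of at least 0.5 FPKM in both groups the median was 0.19, with 60 higher and 18 lower.

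The same contrast stood at every level of abundance. Members between 0.5 and 1 FPKM had a median log2 fold change of 0.20, those between 1 and 2 FPKM 0.26, those between 2 and 5 FPKM 0.19 and those above 5 FPKM 0.16. Protein-coding genes in the same ranges had medians of -0.013, -0.032, -0.033 and 0.028. In each range a larger share of members than of protein-coding genes rose, and a smaller share fell. The shares that rose were 14.3%, 20.7%, 23.9% and 35% of members, against 6.35%, 13.9%, 15.1% and 29.8% of protein-coding genes. Those that fell were 5.10%, 8.11%, 4.23% and 10% of members, against 10.1%, 14.6%, 23.0% and 24.1%. Summed over the 320 members, the antisense RNAs took 953, 872 and 813 FPKM in sh-NC and 988, 1072 and 1059 FPKM in sh-TRAF2. The 3 knockdown samples lay above the 3 controls, with sh-NC replicate 1 the nearest to them.

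At the thresholds the study used, an adjusted p under 0.05 and an absolute log2 fold change above 1, 13 members were called higher and 1 lower. Over all genes 1.72% were called, 0.986% as higher and 0.733% as lower, and 4.06% of the members were called higher. The share called higher was 3.60% among the 695 other non-coding rows tested and 5.79% among the 121 tested rows named LINC. The count of 14 rests on few samples: it was 34 when sh-NC replicate 1 was left out, and 7 when either sh-NC replicate 3 or sh-TRAF2 replicate 2 was. MELTF-AS1, FARSA-AS1 and GEMIN7-AS1 were among the 4 called whichever sample was left out, and 10 lost the call in at least 1 such fit.

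GEMIN7-AS1 had the largest fold change. Its partner GEMIN7 is a subunit of the SMN complex, which assembles spliceosomal ribonucleoproteins. GEMIN7-AS1 measured 1.5, 0.484 and 0.339 FPKM in sh-NC and 3.08, 1.97 and 3.32 FPKM in sh-TRAF2, a log2 fold change of 1.93 (SE 0.433, adjusted p = 0.00757), and GEMIN7 rose from 11.0 ± 0.485 to 17.3 ± 0.974 FPKM (SD, n = 3). All knockdown samples exceeded all controls for both RNAs, and sh-NC replicate 1 was the highest control for the antisense RNA, whose log2 fold change was 2.48 without that sample.

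FARSA-AS1, opposite the gene for the alpha subunit of phenylalanyl-tRNA synthetase, measured 3.73, 3.02 and 2.34 FPKM in sh-NC and 6.79, 8.71 and 5.80 FPKM in sh-TRAF2. Its log2 fold change was 1.21 (SE 0.182, adjusted p = 0.00108), and FARSA rose by 0.40 on the log2 scale. MELTF-AS1, opposite the gene for the iron-binding surface protein melanotransferrin, measured 0.325, 0.353 and 0.311 FPKM in sh-NC and 0.936, 0.827 and 0.839 FPKM in sh-TRAF2, with the smallest standard error of the called members (log2 fold change 1.17, SE 0.166, adjusted p = 0.000775). Without sh-NC replicate 1 the log2 fold changes were 1.36 for FARSA-AS1 and 1.16 for MELTF-AS1. MELTF did not reach the threshold, with means of 0.253 and 0.230 FPKM.

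SPAG5-AS1, HMMR-AS1 and PRC1-AS1 were called higher as well, and each lost the call when sh-NC replicate 2, sh-NC replicate 3 or sh-TRAF2 replicate 2 was left out. SPAG5 binds spindle microtubules, HMMR is a hyaluronan receptor that also sits on the spindle, and PRC1 bundles microtubules of the spindle midzone. SPAG5-AS1 measured 1.21, 0.819 and 0.848 FPKM in sh-NC and 2.00, 2.43 and 1.75 FPKM in sh-TRAF2 (log2 fold change 1.04, SE 0.173, adjusted p = 0.00181). HMMR-AS1 measured 0.951, 0.308 and 0.382 FPKM and then 1.15, 1.42 and 1.12 FPKM (1.17, SE 0.326, adjusted p = 0.0197). PRC1-AS1 measured 1.91, 0.677 and 0.546 FPKM and then 1.90, 2.19 and 2.13 FPKM (1.11, SE 0.366, adjusted p = 0.0370). For PRC1-AS1 the groups overlapped, since sh-NC replicate 1 lay at the level of the knockdown samples. Leaving out that sample for its level sets the groups apart by choice, so it is no test of the rise. Without it the log2 fold changes were 1.58 for HMMR-AS1 and 1.61 for PRC1-AS1, and SPAG5-AS1 kept its call. PRC1-AS1 lost the call when any other sample was left out. The messenger RNAs rose as well, with log2 fold changes of 0.74 for SPAG5, 0.53 for HMMR and 0.65 for PRC1, and for none of them did sh-NC replicate 1 approach the knockdown samples.

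Further called members that rose were MED8-AS1, SMARCA5-AS1, CFLAR-AS1, NAV2-AS2, UBQLN1-AS1 and PTPRK-AS1, with log2 fold changes between 1.04 and 1.29. MED8 is a Mediator subunit, SMARCA5 the ATPase of ISWI chromatin remodelers, CFLAR the inhibitor of caspase-8 activation at death receptors, NAV2 a microtubule-associated protein, UBQLN1 a shuttle of ubiquitinated proteins to the proteasome and PTPRK a receptor tyrosine phosphatase. MED8-AS1 measured 3.46, 1.98 and 1.05 FPKM in sh-NC and 4.23, 5.49 and 5.05 FPKM in sh-TRAF2 (adjusted p = 0.0151). CFLAR-AS1 measured 1.21, 0.537 and 0.362 FPKM in sh-NC and 1.85, 1.54 and 1.15 FPKM in sh-TRAF2, with overlapping groups (adjusted p = 0.0314). Without sh-NC replicate 1 the groups of CFLAR-AS1 were apart. The log2 fold change then went from 1.12 to 1.55 for CFLAR-AS1 and from 1.29 to 1.69 for MED8-AS1. For SMARCA5-AS1, NAV2-AS2, UBQLN1-AS1 and PTPRK-AS1 it lay between 1.27 and 1.56 without that sample. Each of these members lost the call when at least 1 other sample was left out. CFLAR-AS1 failed the limma test without sh-NC replicate 2 or 3 or sh-TRAF2 replicate 1 or 2 (adjusted p from 0.0798 to 0.102). In 11 of the 13 members called higher, sh-NC replicate 1 was the highest control, as in 160 of all 320 members. The partners CFLAR, MED8, NAV2, SMARCA5 and UBQLN1 rose too, by 0.13 to 0.34 on the log2 scale, and PTPRK did not pass the test (0.11, adjusted p = 0.0936). CFLAR failed the test without sh-NC replicate 1 or 3 or sh-TRAF2 replicate 1 or 2. SMARCA5 failed it without any 1 sample other than sh-NC replicate 3.

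**Figure D2:**
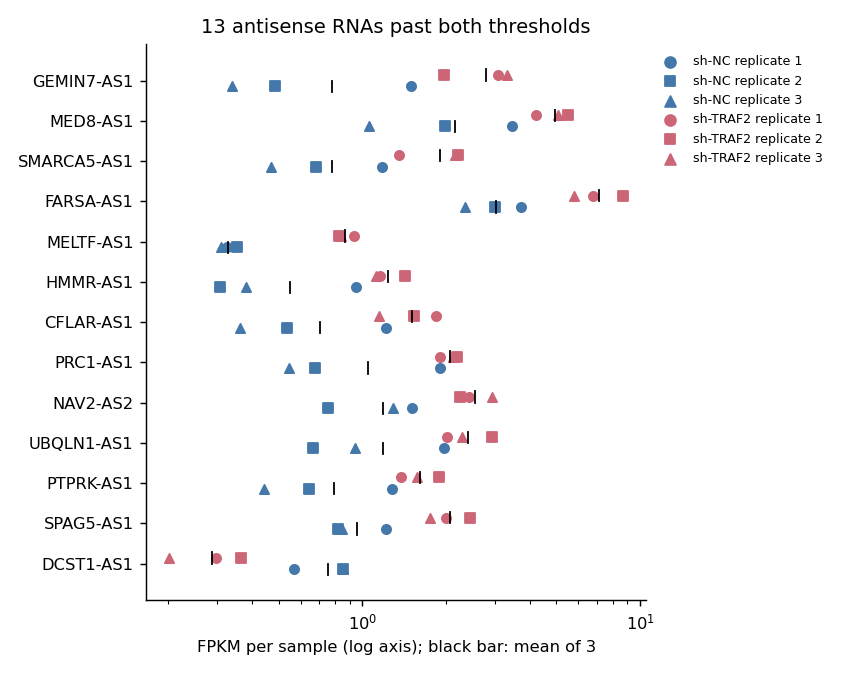
FPKM in each sample (log axis) of 13 of the 14 antisense RNAs past both thresholds, ordered by fold change; black bars are group means of 3 samples. In CFLAR-AS1 and PRC1-AS1 the circle of sh-NC replicate 1 reaches the knockdown samples, and in the other 11 the groups are apart.

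DCST1-AS1 was the only member called lower. It measured 0.566, 0.852 and 0.850 FPKM in sh-NC and 0.297, 0.365 and 0.202 FPKM in sh-TRAF2, with no overlap (log2 fold change -1.14, SE 0.245, adjusted p = 0.00605). Without sh-NC replicate 1 the log2 fold change of DCST1-AS1 was -1.32. Without sh-TRAF2 replicate 3 it was -0.97, and the call was lost. DCST1 was near 0 in every sample. The annotation places DCST1-AS1 over ADAM15, EFNA4 and EFNA3 transcripts on the other strand, and whether their reads were told apart from its own is not known.

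The members with the smallest adjusted p were mostly more abundant and changed less. LURAP1L-AS1 led with 6.40, 6.54 and 5.67 FPKM in sh-NC and 9.74, 11.5 and 10.5 FPKM in sh-TRAF2 (log2 fold change 0.76, SE 0.0797, adjusted p = 0.000170). DLGAP1-AS2 measured 15.1, 15.6 and 12.6 FPKM and then 22.3, 22.8 and 22.9 FPKM (0.65, adjusted p = 0.000288), while DLGAP1, a postsynaptic scaffold gene, stayed under 0.01 FPKM. DLGAP1-AS2 rose with almost no sense RNA present. CARD8-AS1, opposite the gene of an inflammasome sensor, measured 1.72, 1.65 and 1.27 FPKM and then 2.88, 2.66 and 2.83 FPKM (0.82, adjusted p = 0.000858). CARD8 did not pass the test (0.06, SE 0.0898).

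NOP14-AS1, SERTAD4-AS1, UBE2Q1-AS1, PRKAR1B-AS1 and MYG1-AS1 rose by 0.42 to 0.71 on the log2 scale, each with all 3 knockdown samples above all 3 controls. SERTAD4-AS1 and PRKAR1B-AS1 exceeded their partners in level, 5.19 and 1.65 times. Of those 5 partners MYG1 rose (0.21, adjusted p = 0.0367), and NOP14, UBE2Q1, SERTAD4 and PRKAR1B, which is a regulatory subunit of protein kinase A, did not pass the test. VIM-AS1 measured 68.4, 51.8 and 46.1 FPKM in sh-NC and 86.3, 102 and 99.7 FPKM in sh-TRAF2 (0.81, SE 0.131, adjusted p = 0.00154). VIM rose from 1234, 1284 and 1208 FPKM to 1583, 1606 and 1557 FPKM, and VIM-AS1 was at 0.0537 of the level of VIM.

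Of the 269 partners, 55 rose and 64 fell, 20.4% and 23.8%, both close to the shares over all genes. The partners called by fold change as well were SLC25A25, higher, and PAX8 and MDC1, lower. PAX8, a paired-box transcription factor, measured 9.76, 10.3 and 8.86 FPKM in sh-NC and 3.50, 3.03 and 3.28 FPKM in sh-TRAF2 (log2 fold change -1.53, SE 0.0787, adjusted p = 5.79e-06). PAX8-AS1 fell with it, from 5.23, 5.90 and 4.36 FPKM to 2.97, 3.05 and 2.78 FPKM (-0.79, SE 0.107, adjusted p = 0.000644). Both had groups apart, and PAX8-AS1 has the smallest adjusted p among members that fell.

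The antisense RNAs of the other two did not follow. SLC25A25, a mitochondrial carrier of ATP-Mg and phosphate, rose from 5.42 ± 0.273 to 11.7 ± 0.516 FPKM (SD, n = 3; log2 fold change 1.10, adjusted p = 7.43e-06), and SLC25A25-AS1 measured 0.490, 0.582 and 0.616 FPKM in sh-NC and 0.262, 0.622 and 0.542 FPKM in sh-TRAF2 (adjusted p = 0.470). MDC1, a mediator of the DNA damage checkpoint, went from 9.42 ± 0.425 to 4.29 ± 0.250 FPKM (SD, n = 3; log2 fold change -1.12, adjusted p = 1.02e-05), and MDC1-AS1 measured 1.83, 1.48 and 0.583 FPKM in sh-NC and 1.05, 1.07 and 1.35 FPKM in sh-TRAF2 (adjusted p = 0.950). Both antisense RNAs had overlapping groups, and in each 1 sample lay below the rest, sh-TRAF2 replicate 1 for SLC25A25-AS1 and sh-NC replicate 3 for MDC1-AS1.

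Across the 271 pairs the signs of both fold changes matched in 166, 61.3%, with Pearson's r of 0.39 and Spearman's rho of 0.34 as a description over 271 pairs measured in the same 6 libraries. Both RNAs passed the test in 38 pairs. In 22 of them both rose, in 6 both fell, in 9 the antisense RNA rose while the partner fell, and in 1 the antisense RNA fell while the partner rose. In a further 39 pairs the antisense RNA alone passed, 31 of them higher, in 81 the partner alone, and in 113 neither. Taken alone, the antisense RNA rose in 62 of the 271 pairs and fell in 15, and the partner rose in 55 and fell in 64. Of all genes tested 23.7% rose and 20.9% fell. By sign, 195 of the 271 antisense fold changes and 52.4% of those of the 269 partners lay above 0. How many pairs of unrelated genes would move together or apart was not worked out, so these counts are a description. Leaving out sh-TRAF2 replicate 2 reduced the pairs that moved the same way from 28 to 16. The 10 pairs that moved opposite ways became 4 when either sh-NC replicate 3 or sh-TRAF2 replicate 2 was dropped, and 6 when either of the remaining knockdown samples was.

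**Figure D3:**
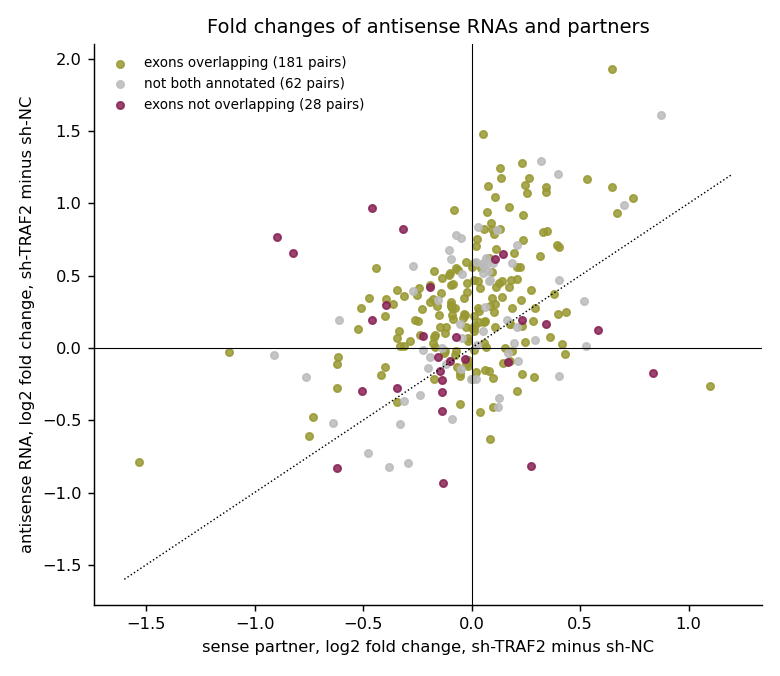
Log2 fold change (sh-TRAF2 minus sh-NC) of the antisense RNA (vertical) against that of its sense partner (horizontal) for 271 pairs, coloured by whether their exons overlap in GENCODE 29. The dotted line marks equal fold changes. Points with overlapping exons lie mostly above 0 on the vertical axis (142 of 181), and those without lie on both sides (14 of 28 above 0).

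The clearest opposite pair was LURAP1L-AS1 and LURAP1L. As the antisense RNA rose, LURAP1L went from 30.6, 31.4 and 32.2 FPKM to 16.3, 16.7 and 17.5 FPKM, a log2 fold change of -0.90 (SE 0.0438, adjusted p = 4.54e-06). Their exons do not overlap in GENCODE 29. PITX1-AS1, beside the gene of the homeobox factor PITX1, measured 1.62, 0.800 and 0.749 FPKM in sh-NC and 1.86, 2.12 and 2.16 FPKM in sh-TRAF2, and PITX1 went from 6.26, 6.09 and 7.48 FPKM to 4.27, 5.05 and 5.01 FPKM. The log2 fold changes were 0.97 and -0.46 (adjusted p = 0.0135 and 0.00587), and neither RNA had overlapping groups.

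SPRY4 encodes an inhibitor of receptor tyrosine kinase signaling, and its pair was the one in which the antisense RNA fell. SPRY4-AS1 measured 1.38, 1.42 and 1.27 FPKM in sh-NC and 0.535, 0.740 and 0.965 FPKM in sh-TRAF2, while SPRY4 went from 19.2, 20.6 and 17.7 FPKM to 23.8, 23.3 and 22.2 FPKM. The log2 fold changes were -0.81 (SE 0.190) and 0.27 (SE 0.0605), at adjusted p = 0.00887 and 0.00691. In the pairs of LURAP1L, PITX1 and SPRY4, both genes passed the test whichever sample was left out, and in the other 7 at least 1 gene did not.

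NNT encodes the mitochondrial transhydrogenase that makes NADPH, and NNT-AS1 was nearly as abundant as its partner. NNT-AS1 went from 9.57 ± 0.657 to 11.1 ± 0.184 FPKM and NNT from 13.4 ± 0.218 to 10.1 ± 0.192 FPKM (SD, n = 3), so that the antisense RNA was the lower of the pair in the controls and the higher in the knockdown. FLRT2, a cell adhesion gene, fell from 3.00 ± 0.0963 to 1.66 ± 0.103 FPKM while FLRT2-AS1 rose from 0.458 ± 0.145 to 0.762 ± 0.0574 FPKM (SD, n = 3). NUP153-AS1, opposite a gene of the nuclear pore basket, rose by 0.53 on the log2 scale, and NUP153 changed by -0.17. SRI-AS1 and RASSF8-AS1 rose by 0.57 and 0.44, and their partners changed by -0.27 and -0.19. SRI-AS1 and RASSF8-AS1 failed the test when limma-voom was run on the recovered reads.

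**Figure D4:**
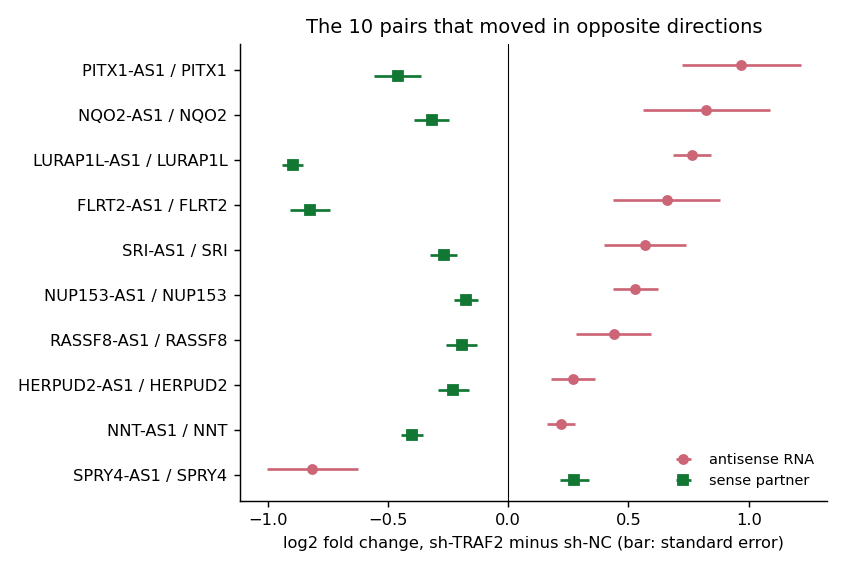
Log2 fold change (sh-TRAF2 minus sh-NC) of both genes in the 10 pairs in which both passed the test and moved in opposite directions; bars are standard errors. The antisense RNA is on the right in 9 pairs and on the left in that of SPRY4.

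The start regions printed above belong to pairs of different behavior. HERPUD2-AS1 measured 3.77, 4.06 and 4.26 FPKM in sh-NC and 5.52, 4.4 and 4.78 FPKM in sh-TRAF2 and rose by 0.27 on the log2 scale (adjusted p = 0.0417), while HERPUD2 changed by -0.23 (adjusted p = 0.0196). NQO2-AS1, beside the gene of a quinone reductase, measured 0.888, 0.540 and 0.426 FPKM and then 1.16, 1.43 and 0.852 FPKM (0.82, adjusted p = 0.0337), with overlapping groups, and NQO2 changed by -0.32 (adjusted p = 0.00825). Both were pairs in which the RNAs on either side of one start region moved apart.
KTN1-AS1 measured 0.353, 0.444 and 0.392 FPKM and then 0.646, 0.848 and 1.15 FPKM (0.96, adjusted p = 0.00832), and KTN1, the gene of the kinesin-binding protein kinectin, did not pass the test (-0.08, adjusted p = 0.145). ENO1-AS1 measured 0.754, 0.563 and 0.542 FPKM and then 0.964, 1.43 and 0.829 FPKM (0.69, adjusted p = 0.0314), from 9 to 22 reads, and the glycolytic enzyme gene ENO1 rose from 1401 to 1516 FPKM (adjusted p = 0.0131). ENO1-AS1 stood at 0.000581 of the level of ENO1, and GENCODE 29, which places starts differently from RefSeq, gives the exons of this pair an overlap of 126 bases, those of the HERPUD2 pair 152 bases and those of the KTN1 pair 79 bases. Across all head to head pairs tested, 54 of 104 fold changes had matching signs, and across the rest 112 of 167.

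The ratio of antisense to partner, taken within each sample, gave the groups apart in 84 of the 271 pairs, 68 higher in sh-TRAF2 and 16 lower. That is 31.0% of the pairs, whereas by their own level 55.5% of all genes and 56.9% of the partners had groups apart. The exact permutation test over the 20 assignments of samples to groups is two-sided and cannot give a p under 0.1, which these 84 pairs reached, so none could pass 0.05. The count that rose was 129 when sh-NC replicate 1 was left out, and the count that fell was 26 when sh-TRAF2 replicate 2 was; fewer samples make an overlap less likely. The log2 ratio differed by 1.66 for LURAP1L-AS1, 1.43 for PITX1-AS1, 0.75 for PAX8-AS1, -1.36 for SLC25A25-AS1 and -1.09 for SPRY4-AS1. In the pairs of PRC1, HMMR and SPAG5 the ratio overlapped between the groups, with differences of 0.47, 0.63 and 0.29.

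The rise was not even over kinds of pair or over samples, which was seen after the values were known. In the 181 pairs whose exons overlap in GENCODE 29, the median antisense log2 fold change was 0.27, with 40 higher and 7 lower. In the 28 pairs whose exons do not overlap it was 0.0079, with 4 higher and 5 lower, and in the 62 pairs not both annotated there 0.18. Beside these counts stand the 23.7% of all genes tested that rose and the 20.9% that fell. By level, the 43 antisense RNAs under 0.03 of their partner had a median of 0.45, the 86 from 0.03 to 0.1 a median of 0.28, the 76 from 0.1 to 0.3 a median of 0.29, the 42 from 0.3 to 1 a median of 0.12 and the 24 above their partner a median of 0.028. The median of the 42 members whose partner was under the threshold was 0.017. Within the pairs with overlapping exons, the 90 with antisense under 0.1 of the partner had a median of 0.34, with 23 higher and 1 lower. The 45 at 0.3 or more had a median of 0.068, with 8 higher and 5 lower. All 12 called members with a tested partner stood at less than 0.3 of its level.

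The samples differed in the same way within the control group. In pairs with overlapping exons the median antisense deviation from the gene's own mean was 0.044, -0.14 and -0.28 (log2) in sh-NC replicates 1, 2 and 3, and 0.079, 0.19 and 0.18 in sh-TRAF2. In the 129 pairs with antisense under 0.1 of the partner it was 0.12, -0.22 and -0.36 in sh-NC and 0.097, 0.25 and 0.22 in sh-TRAF2, so sh-NC replicate 1 lay above sh-TRAF2 replicate 1. In the 66 pairs at 0.3 or more it was -0.077, 0.010 and -0.082 in sh-NC and -0.030, 0.095 and 0.037 in sh-TRAF2. The medians of the partners over all 271 pairs lay between -0.011 and 0.016 in the 6 samples. Within the kinds of pair they lay between -0.014 and 0.028 where exons overlap, -0.095 and 0.086 where they do not, -0.030 and 0.025 for antisense under 0.1 of the partner and -0.056 and 0.054 at 0.3 or more. The part that overlapping sense reads or sh-NC replicate 1 have in the rise of the antisense group was not tested.

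**Figure D5:**
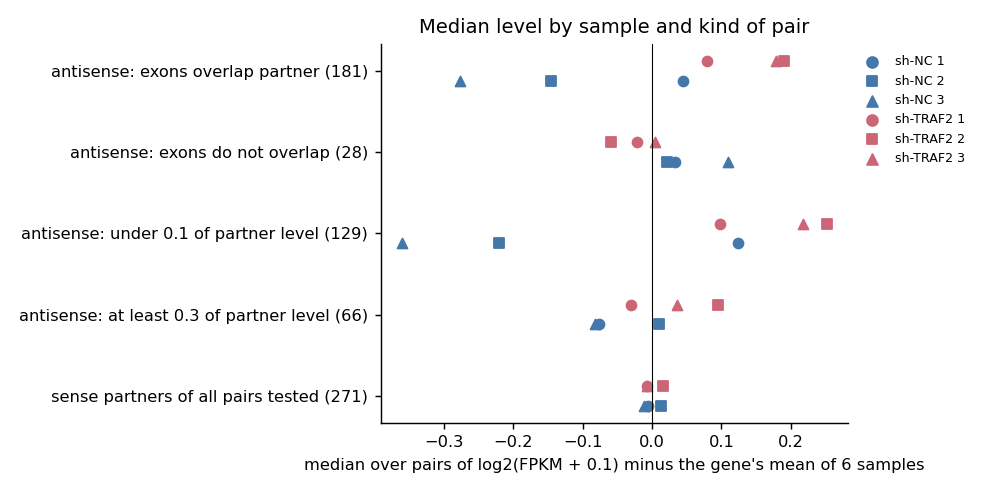
Median over pairs, in each of the 6 samples, of log2(FPKM + 0.1) minus the gene's mean over the samples, for kinds of pair; the number of pairs is in parentheses. Where exons overlap or the antisense RNA is scarce, the 3 controls spread from -0.36 to 0.12 and sh-NC replicate 1 lies near or among the knockdown samples; the partners, shown over all pairs tested, lie between -0.011 and 0.016.

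The antisense RNAs were also grouped by what the partner is known to do, with the values known when the groups were made and no test of a group against the other members. Beside the counts that follow stand the 21.2% of all members and 23.7% of all genes that rose. The shares that fell were 6.56% of all members and 20.9% of all genes. So few members fell that a small group with none says little. Of 10 antisense RNAs opposite genes of cell division and DNA replication, 6 rose and none fell, with a median of 0.90. Their partners had a median of 0.29, with 6 higher and 2 lower. PCNA-AS1, opposite the gene of the replication clamp, averaged 2.17 ± 0.939 FPKM in sh-NC and 4.25 ± 0.992 FPKM in sh-TRAF2 (SD, n = 3; log2 fold change 0.99, adjusted p = 0.0196), and PCNA rose by 0.70. CLASP1-AS1 rose by 0.81, while CLASP1, which stabilizes microtubules, did not pass the test (adjusted p = 0.123).

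Of 14 antisense RNAs opposite genes of inflammatory and death signaling, 6 rose and none fell, with a median of 0.39 against 0.041 for the partners. IL6-AS1 averaged 1.89 ± 0.406 FPKM in sh-NC and 3.14 ± 0.589 FPKM in sh-TRAF2 (SD, n = 3; adjusted p = 0.0112) and the cytokine gene IL6 rose by 0.40. IER3-AS1, BCL10-AS1 and CYLD-AS1 rose by 0.63, 0.59 and 0.59. BCL10, which activates NF-kappaB, and CYLD, a deubiquitinase that restrains it, did not pass the test (adjusted p = 0.758 and 0.338).

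Of 15 opposite genes of the cytoskeleton and matrix, 6 rose and 2 fell (median 0.40), and the 2 that fell were LPP-AS2 and CSRP1-AS1. NEXN-AS1, opposite an actin-binding gene, averaged 0.487 ± 0.0701 FPKM in sh-NC and 1.04 ± 0.260 FPKM in sh-TRAF2 (SD, n = 3; adjusted p = 0.00681), and NEXN rose by 0.67. EZR-AS1, opposite the ezrin gene, rose by 0.97 (adjusted p = 0.0335).

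Among 12 opposite genes of protein synthesis and the mitochondrial ribosome, 6 rose and none fell (median 0.52), and 3 of the partners rose. PABPC4-AS1 rose by 0.92 and MRPS9-AS1 by 0.86, beside 0.24 for PABPC4, a poly(A)-binding protein, and 0.09 for MRPS9 (adjusted p = 0.181). Among 23 antisense RNAs of developmental transcription factors 3 rose and 2 fell (median 0.12), and among 18 opposite genes named ZNF 2 rose and 2 fell (median 0.047).

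Other non-coding rows gave a comparison. The 94 divergent transcripts, named -DT and started beside a gene on the other strand, had a median log2 fold change of 0.13, with 14 higher and 7 lower. The 121 rows named LINC, which stand between genes, had a median of -0.0028, with 25 higher and 15 lower, and the 23 small nucleolar RNA host genes a median of 0.090, with 7 higher and 1 lower. The 17 microRNA host genes had a median of 0.14, with 1 higher and 1 lower, and the 6 rows named -IT1 or -OT1 a median of 0.0080, with none higher and 1 lower. All 695 other non-coding rows tested had a median of 0.14, with 154 higher and 64 lower. Of 28 genes of the nuclear exosome and its adaptors, which degrade short-lived antisense RNAs, 8 rose and 2 fell, 28.6% and 7.14% against 23.7% and 20.9% of all genes, with a median of 0.11, and none was called by fold change. Among them DIS3, a catalytic subunit, and EXOSC10, a nuclear exonuclease, rose by 0.28 and 0.21, and the 2 that fell were the core subunits EXOSC6 (-0.19, adjusted p = 0.0183) and EXOSC8 (-0.18, adjusted p = 0.00747).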

How the data were processed

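Total RNA of 6 samples was extracted with TRIzol, and libraries were made with the VAHTS Universal V6 RNA-seq kit. A service company sequenced the libraries and processed the reads. The authors deposited 1 table of FPKM values, a column per sample. The submitters' processing notes name HISAT2, HTSeq, R 3.2.0 and DESeq2 without giving their roles, and the genome build, annotation and strand setting are not given in the sources used here. All columns belong to a sample.

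From the deposited FPKM, log2(FPKM + 0.1) was compared with limma 3.58.1 in R 4.3.3 (lmFit, eBayes with a trend, two-sided) over the 11870 genes that averaged 0.5 FPKM or more, with Benjamini-Hochberg adjustment. Fold changes are on this log2(FPKM + 0.1) scale and are too small for scarce RNAs. Called means an adjusted p under 0.05 and an absolute log2 fold change above 1, the study's thresholds. The whole reads recovered from the steps of the FPKM values came out whole for 100% of genes (tolerance 0.0001), though for the 2643 genes with a value in 1 sample only the lowest count was taken. The fit and the recovery were tested on simulated data. Replicates differed by more than counting noise. The members, lists, rule for named genes and tests were chosen with earlier results of these data known, and the role groups and the splits by exon overlap and level with the present values known. Genes were named if called, among the 10 smallest adjusted p without overlap, in an opposite pair, or among the highest levels or ratios, with their partners, and others were chosen after their values were seen. Results of 1 gene that the rule selects are not reported here. Exon overlaps come from GENCODE 29, arrangements and promoters from RefSeq GRCh38.p14, and since the build of the files is not known, coordinates are given for RefSeq promoters only. Of the 320 members, 260 matched RefSeq promoters by gene number, and the first start listed was used for arrangements. As alternatives, the pseudocount was set to 1 or 0.01, the filter was dropped or raised to 1 FPKM, and values were rescaled to one total or quantile normalized. Further alternatives were a replicate block, eBayes without a trend, limma-voom on recovered reads, no fold-change threshold, and each sample left out.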

Additional observations from a re-analysis of the deposited data

How the results depend on the processing

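The 14 members called became 2 with a pseudocount of 1, 22 with a pseudocount of 0.01, 8 with no filter, 24 with limma-voom on the recovered reads and 89 with no fold-change threshold, and between 7 and 34 when 1 sample was left out. The 68 members that rose became 34 with no filter, and between 37 and 88 without 1 sample. The 3 partners called became 1 with a pseudocount of 1 and 119 with no fold-change threshold. Pairs that moved the same way numbered 14 with no filter and between 16 and 24 without 1 sample, and pairs that moved opposite ways 4 with no filter and between 4 and 8 without 1 sample. Among the opposite pairs, SRI-AS1, RASSF8-AS1 and NQO2-AS1 failed the test with limma-voom, and HERPUD2-AS1 and RASSF8-AS1 with values rescaled to one total. With a replicate block FLRT2-AS1 and HERPUD2-AS1 failed it, and FLRT2-AS1 also failed with quantile normalization. HERPUD2-AS1, NQO2-AS1, NUP153, RASSF8 and RASSF8-AS1 failed it with eBayes without a trend. With no filter the adjustment ran over 23002 genes. The causes of the other shifts were not tested. Ratios that rose without overlap numbered between 76 and 129 without 1 sample, and ratios that fell between 20 and 26. Under every alternative run, the median fold change of members moved by less than the spread between replicates and TRAF2 kept its call. Among named genes that were not called, the log2 fold change changed sign without 1 sample for MDC1-AS1 (between -0.48 and 0.27), SLC25A25-AS1 (between -0.46 and 0.043), EPB41L4A-AS1 (between -0.094 and 0.00011) and UBE2Q1 (between -0.020 and 0.067), and with quantile normalization for UBE2Q1 (-0.019). Samples with the same replicate number did not deviate together (r of -0.081, 0.072 and 0.073), so the numbers were not taken as pairs; with the replicate block 16 members were called, 74 rose and 23 fell. The depth limits members with fewer than 10 reads in a sample.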
